A study of Homo sapiens with 12 samples.

Results

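The Polycomb repressive complex PRC2 was described through 10 of its genes, chosen by name with earlier results of these data known: EZH2, EZH1, EED, SUZ12, RBBP4, RBBP7, JARID2, PHF19, MTF2 and AEBP2. All 10 were among the 23368 gene symbols counted, and all 10 passed the filter on low counts in every fit. Messenger RNA was sequenced from SUDHL6, an established human diffuse large B-cell lymphoma line of germinal centre type. The groups were cells given 200 nM GSK591, which blocks PRMT5, an enzyme that methylates arginines, for 24 h, their vehicle controls (0.01% DMSO) at 24 h, cells given GSK591 for 96 h, and their vehicle controls at 96 h. Each group held 3 samples, 12 in all, from this 1 cell line. The series concerns PRMT5, the oncoprotein BCL6 and the survival of lymphoma cells, and PRC2 is a chromatin regulator that germinal centre B cells use beside BCL6.

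PRC2 places methyl groups on lysine 27 of histone H3, a mark of repressed genes. EZH2 and its paralog EZH1 carry the catalytic domain, and the EZH2 form is the more active and is typical of dividing cells. EED reads the trimethyl mark and stimulates the enzyme, SUZ12 is the scaffold, and RBBP4 and RBBP7 are histone-binding proteins that PRC2 shares with the CAF-1, NuRD and SIN3 complexes. The accessory proteins define alternative forms of the complex: JARID2 and AEBP2 belong to one, and the Polycomb-like proteins PHF19 and MTF2 to the other. EZH2 is highly expressed in germinal centre B cells, and gain-of-function changes in its catalytic domain recur in lymphomas that arise from them.

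The 12 libraries held 48.5 to 64.4 M counts each, apart from 1 far deeper library, vehicle 96 h replicate 1, with 547.9 M. The 10 PRC2 genes were well covered, with 1859 reads for JARID2 in the library where it was lowest. PRMT5 itself, the target of the drug, had 85.0 ± 1.65 CPM (scaled read counts relative to library size; SD, n = 3) in GSK591 cells and 89.6 ± 4.96 CPM in vehicle cells at 96 h, and did not pass the test at either time (adjusted p = 0.984 at 24 h and 0.373 at 96 h, edgeR's quasi-likelihood test), which bears on transcript level and not on enzyme activity. At 96 h the libraries numbered 2 stood apart in both groups. Relative to the vehicle mean at 96 h, the mean log2 CPM of a list of 20 proliferation genes was -0.52 in GSK591 replicate 2, against -0.88 and -0.76 in replicates 1 and 3. In the vehicle libraries it was 0.17 in replicate 2, against -0.09 and -0.08 in replicates 1 and 3. Results at 96 h that move with these libraries are therefore given with and without them. They were singled out from these same data, and leaving them out can lower the spread that the test uses. P-values without them can thus be too small, and are no stronger evidence than those with all libraries. The libraries carried the germinal centre B-cell markers, all 10 of which were detected, with summed levels of 7592 to 8585 CPM in GSK591 cells and 7246 to 7707 CPM in vehicle cells at 96 h. Markers of other cell types (T cell, myeloid, fibroblast, epithelial and erythroid, 10 genes) summed to 11.3 to 14.6 CPM in GSK591 cells and 9.87 to 11.5 CPM in vehicle cells at 96 h, most of it CD68.

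EZH2, the catalytic subunit, did not pass the test at either time. At 24 h it had 122, 123 and 122 CPM in GSK591 cells, against 120.2, 119.15 and 122 CPM in vehicle cells, and the groups overlapped. The log2 fold change of GSK591 over vehicle was 0.02 ± 0.02 (SE; 95% interval -0.03 to 0.07; adjusted p = 0.661, edgeR's quasi-likelihood test). At 96 h it had 104, 119.7 and 103 CPM in GSK591 cells, against 110.2, 121 and 108 CPM in vehicle cells. The library numbered 2 was the highest in both groups, and the groups overlapped. EZH2 has a named pseudogene, whose reads could be counted to either. The log2 fold change at 96 h was -0.03 ± 0.08, with a 95% interval of -0.20 to 0.13 (adjusted p = 0.732). It ran from -0.12 to 0.01 over 15 alternatives, and EZH2 was not called in any of them. The effect at 96 h differed from that at 24 h by -0.07 ± 0.08 (adjusted p = 0.554, edgeR's quasi-likelihood test on 12 libraries). Over 20 alternatives that difference ran from -0.14 to -0.03, and it was called in 1. In these bulk libraries, fewer cells of a kind and less RNA per cell cannot be told apart. The region upstream of the EZH2 start is shown because EZH2 is the gene these results are ordered around, beside that of JARID2, the member with the largest fold change. Sequences are RefSeq's (GRCh38.p14), 5′ to 3′ on the gene's strand, at chr7:148884322-148884541 (minus strand) for EZH2 and chr6:15245819-15246068 (plus strand) for JARID2. Capitals mark the CCAAT box, a promoter element bound by the factor NF-Y, on either strand.
EZH2: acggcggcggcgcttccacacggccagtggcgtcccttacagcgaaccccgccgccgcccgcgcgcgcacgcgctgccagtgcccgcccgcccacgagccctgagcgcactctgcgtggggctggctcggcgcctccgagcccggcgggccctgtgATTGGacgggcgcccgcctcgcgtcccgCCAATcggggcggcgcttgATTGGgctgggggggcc
JARID2: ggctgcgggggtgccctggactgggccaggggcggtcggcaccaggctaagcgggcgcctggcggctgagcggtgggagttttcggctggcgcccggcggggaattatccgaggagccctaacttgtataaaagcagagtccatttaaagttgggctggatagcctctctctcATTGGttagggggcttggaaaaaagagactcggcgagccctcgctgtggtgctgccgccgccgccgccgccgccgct
The EZH2 stretch held 3 CCAAT boxes and 4 GC boxes (GGGCGG, either strand), and the JARID2 stretch 1 CCAAT box and 1 GC box. Neither held any of 4 searched octamers of the E2F site (TTTCGCGC, TTTGGCGC, TTTCCCGC and TTTGCCGC, either strand; an octamer and a GC box can share bases). Over the 250 bases upstream of every start in the table, 32.0% of 35116 windows held a CCAAT box, 42.6% a GC box and 2.79% an E2F octamer. Of the 10 PRC2 genes, 4 had an E2F octamer in at least 1 window (AEBP2, EZH1, PHF19 and SUZ12), against 3.4% of all genes in the table and 9 of 17 matched genes of the proliferation list. These are matches of letters in a window and say nothing on binding.

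**Figure D1:**
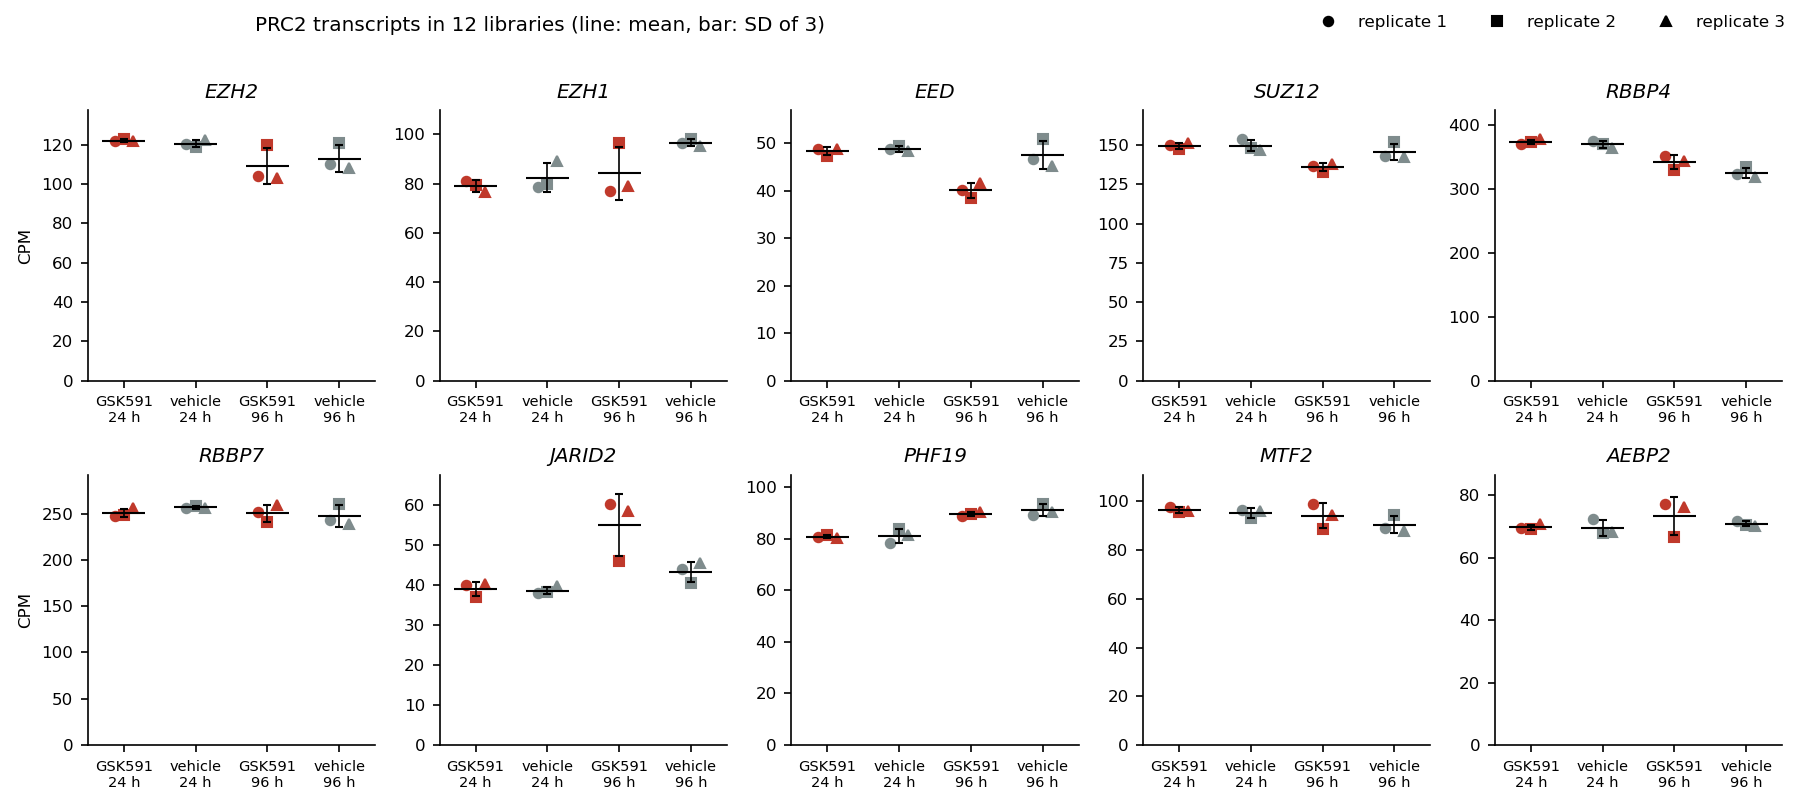
Level of each of the 10 PRC2 transcripts in the 12 libraries, in CPM on axes that start at 0, with GSK591 groups left of their vehicle groups at 24 h and 96 h; points are libraries, marked by replicate number, with the mean and the SD of 3. EED lies below vehicle and JARID2 above vehicle in GSK591 cells at 96 h without overlap, and the point of replicate 2 sits apart for EZH1, JARID2 and AEBP2 in GSK591 cells at 96 h.

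At 24 h none of the 10 PRC2 genes passed the test. Of the 10, 0 had an unadjusted p under 0.05, and DESeq2 called 0 as well. Over all genes tested at 24 h, 14.7% were called (1940 of 13173) by edgeR's quasi-likelihood test, 7.44% higher and 7.29% lower. By number these were 980 higher and 960 lower, and 563 higher and 1220 lower with library size alone as the scaling. With all 12 libraries in 1 fit, 29 genes were called at 24 h. The log2 fold changes of the 10 PRC2 genes ran from -0.06 (EZH1) to 0.02 (MTF2), with adjusted p from 0.301 to 0.979. The groups did not overlap for 1 of the 10, against 31.9% of all genes tested. That gene was RBBP7, with 247, 248 and 255.8 CPM in GSK591 cells, against 256.0, 258 and 256.0 CPM in vehicle cells. Its log2 fold change was -0.04 ± 0.02 (adjusted p = 0.314), so the difference was small and not past the threshold. For JARID2, which has the lowest level per length of the 10, the 95% interval of the log2 fold change at 24 h was -0.07 to 0.09.

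At 96 h, 2 of the 10 PRC2 genes passed the test, EED lower and JARID2 higher in GSK591 cells, where 40.2% of all genes tested were called (5437 of 13514), 20.7% higher and 19.6% lower. The groups did not overlap for 3 of the 10 (EED, SUZ12 and JARID2), against 54.6% of all genes tested. Both shares were below those of all genes. The median log2 fold change was 0.01 over the 10 PRC2 genes and 0.00 over all genes.

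Among the core subunits, EED fell at 96 h. It had 40.1, 38.5 and 41.7 CPM in GSK591 cells, against 46.7, 50.9 and 45.2 CPM in vehicle cells. Every GSK591 library lay below every vehicle library. EED fell by 0.23 ± 0.06 on the log2 scale, or by 14.9% (95% interval of the log2 value -0.37 to -0.10; adjusted p = 0.0159, edgeR's quasi-likelihood test). The call held under all 15 alternatives, with log2 values of -0.27 to -0.17 and adjusted p of 0.000725 to 0.0489. The authors' deposited table has EED at a log2 fold change of -0.23 with an FDR of 0.02. At 24 h EED had 48.8, 47.4 and 48.8 CPM in GSK591 cells, against 48.8, 49.4 and 48.3 CPM in vehicle cells, which overlapped. The effect differed between the times by -0.23 ± 0.07 on the log2 scale (96 h minus 24 h; adjusted p = 0.0255 in a fit of 12 samples). EED was the 1 PRC2 gene called for this difference, and lower, where 24.1% of all genes were called, 13.2% lower. That call was lost without vehicle 24 h replicate 1 (adjusted p = 0.0536) or replicate 3 (0.0525), and without GSK591 24 h replicate 1 (0.0556) or replicate 3 (0.0575).

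SUZ12, the scaffold, had 136.9, 133 and 137.6 CPM in GSK591 cells at 96 h, against 143.1, 151.6 and 142.5 CPM in vehicle cells. The groups did not overlap, but the difference was small, at -0.09 ± 0.05 on the log2 scale, and did not pass the threshold (adjusted p = 0.177). With all 12 libraries in 1 fit, which shares its spread over both times, it did (adjusted p = 0.034). At 24 h SUZ12 had 149.9, 147 and 150.9 CPM in GSK591 cells, against 153.6, 148 and 147 CPM in vehicle cells, which overlapped. SUZ12 has a named pseudogene, and reads shared with it could be counted to either.

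EZH1, the second catalytic paralog, was not called at 96 h, and its value varied with 1 library. At 96 h it had 77.2, 96.4 and 78.9 CPM in GSK591 cells, against 96.5, 98.0 and 95.3 CPM in vehicle cells. Replicates 1 and 3 of the GSK591 cells lay well below all vehicle libraries, while replicate 2 lay among them. The log2 fold change was -0.18 ± 0.09 with a 95% interval of -0.38 to 0.01, and EZH1 was not called (adjusted p = 0.12). Without GSK591 96 h replicate 2 it was -0.31 and was called (adjusted p = 0.000371), and without both libraries numbered 2 it was -0.30 (adjusted p = 1.88e-05). These libraries were left out for standing apart in the same data, which can make both p-values too small. With all libraries kept and all 12 in 1 fit it was -0.20 and was called as well (adjusted p = 0.0311). That fit shares its spread over both times. At 24 h EZH1 had 81.1, 79.6 and 76.5 CPM in GSK591 cells, against 78.5, 79.9 and 89.1 CPM in vehicle cells, which overlapped. Its effect did not pass the test for a difference between the times, except at -0.25 without GSK591 96 h replicate 2 (adjusted p = 0.0062) and without both libraries numbered 2 (0.00175).

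The histone-binding pair RBBP4 and RBBP7 was not called at 96 h. RBBP4 had 350.9, 329.7 and 343.7 CPM in GSK591 cells, against 323, 334 and 318 CPM in vehicle cells, and the groups overlapped through the libraries numbered 2. Its log2 fold change was 0.09 ± 0.05 (adjusted p = 0.199), and 0.12 without those libraries (adjusted p = 0.0227). RBBP7 had 252, 240.5 and 259 CPM in GSK591 cells, against 243, 261 and 238 CPM in vehicle cells, a log2 fold change of 0.03 (adjusted p = 0.662). RBBP4 has 6 named pseudogenes and overlaps SYNC on the opposite strand, and RBBP7 overlaps TXLNG. How the counting treated strand is not stated, so reads of these partners cannot be told apart.

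Among the accessory subunits, JARID2 rose at 96 h. JARID2, which helps bring PRC2 to its target genes, had 60.3, 46.0 and 58.5 CPM in GSK591 cells, against 43.9, 40.6 and 45.4 CPM in vehicle cells. The groups did not overlap, and the library numbered 2 was the lowest of both. The log2 fold change was 0.36 ± 0.10, or 27.9% higher (95% interval 0.14 to 0.57; adjusted p = 0.0186, edgeR's quasi-likelihood test). The call was lost without vehicle 96 h replicate 2 (adjusted p = 0.0794), GSK591 96 h replicate 1 (0.0726) or GSK591 96 h replicate 3 (0.0714). Without both libraries numbered 2 the value was 0.42 (adjusted p = 2.12e-06), a p-value that choosing these libraries from the same data can make too small. Over the 15 alternatives the log2 value ran from 0.28 to 0.46. The authors' deposited table has JARID2 at 0.36 with an FDR of 0.00288. At 24 h JARID2 had 39.9, 37.0 and 40.1 CPM in GSK591 cells, against 38.0, 38.1 and 39.7 CPM in vehicle cells. The effect at 96 h exceeded that at 24 h by 0.33 ± 0.12 on the log2 scale, which did not pass the threshold (adjusted p = 0.0542). It was called under 6 of 20 alternatives, among them that without GSK591 96 h replicate 2, where the difference was 0.44 (adjusted p = 0.000148). JARID2-AS1 lies on the opposite strand of JARID2, and its reads cannot be told apart from those of JARID2.

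AEBP2, the partner of JARID2 in the same form of the complex, had 77.3, 66.4 and 76.3 CPM in GSK591 cells at 96 h, against 71.8, 70.4 and 70.2 CPM in vehicle cells. Replicates 1 and 3 of the GSK591 cells lay above the vehicle libraries and replicate 2 below them. The log2 fold change was 0.06 ± 0.06 (adjusted p = 0.432), and 0.12 without GSK591 96 h replicate 2 (adjusted p = 0.0375). The Polycomb-like genes were not called. PHF19 had 88.8, 89.4 and 90.3 CPM in GSK591 cells at 96 h, against 89.3, 93.6 and 90.1 CPM in vehicle cells, a log2 fold change of -0.01 ± 0.05 (adjusted p = 0.879). Its 95% interval was -0.11 to 0.09, which reflects only the spread of these libraries. MTF2 had 99.1, 88.8 and 94.3 CPM in GSK591 cells, against 89.0, 94.3 and 87.8 CPM in vehicle cells, which overlapped. Its log2 fold change was 0.07 ± 0.06 (adjusted p = 0.319), and 0.13 without both libraries numbered 2 (adjusted p = 0.013).

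**Figure D2:**
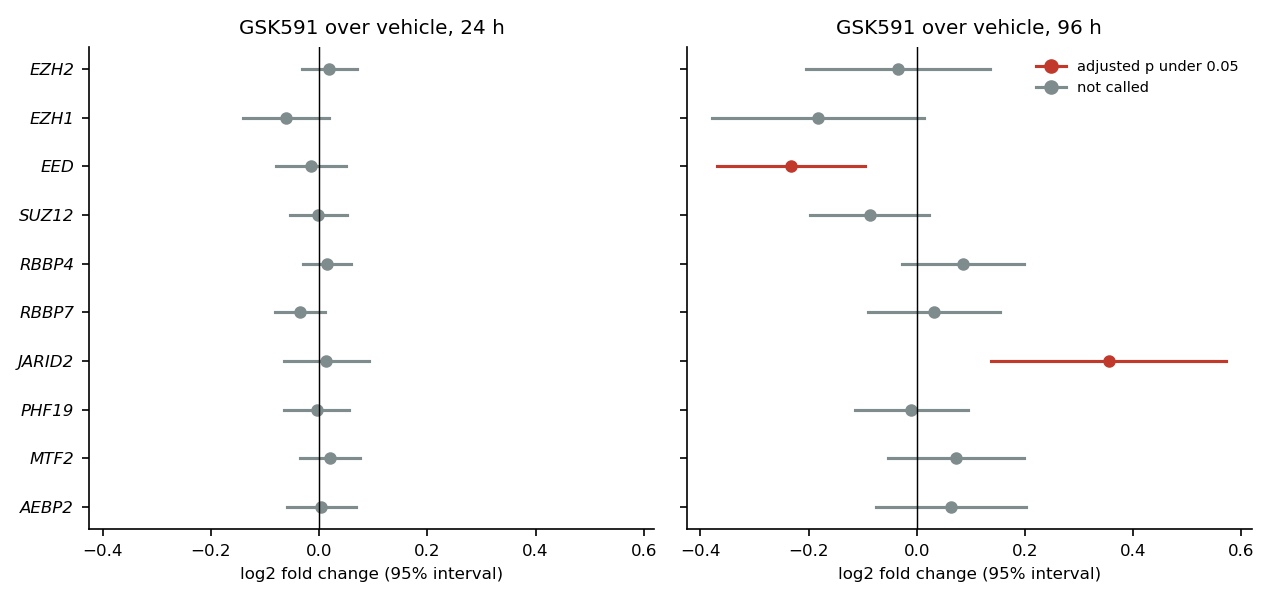
Log2 fold change of GSK591 over vehicle for the 10 PRC2 genes at 24 h (left) and 96 h (right), with 95% intervals from edgeR's quasi-likelihood fit of 6 libraries; red marks adjusted p under 0.05 over all genes. At 24 h every interval includes 0, and at 96 h the intervals of EED (below 0) and JARID2 (above 0) do not.

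Leaving out both libraries numbered 2 at 96 h raised the number of calls in the complex, as it did over all genes. Then 4 of the 10 PRC2 genes were called higher (JARID2, RBBP4, MTF2 and AEBP2) and 2 lower (EED and EZH1), and 8201 genes were called over the whole table. EZH2 was not among them. With all libraries kept, 5437 of 13514 genes were called. Calls thus rose over all genes as well, so these counts are no result about PRC2 as a group. Whether the state of these libraries accounts for the difference was not tested.

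Ratios of paralogs within a library do not depend on scaling. The log2 ratio of EZH1 to EZH2 counts at 96 h was -0.38 ± 0.06 in GSK591 cells and -0.22 ± 0.07 in vehicle cells (SD, n = 3 each), and the groups did not overlap. The difference of -0.15 gave an exact two-sided permutation p of 0.1, the smallest that 3 against 3 allows, and 0.3 after adjustment over the 6 ratios compared. At 24 h the same ratio differed by -0.08 with overlap (exact permutation p = 0.2). The RBBP7 to RBBP4 ratio at 24 h was -0.58 ± 0.01 in GSK591 cells and -0.53 ± 0.02 in vehicle cells, a difference of -0.05 without overlap (exact permutation p = 0.1). At 96 h it differed by the same -0.05, with overlap (exact permutation p = 0.3). The PHF19 to MTF2 ratio differed by -0.02 at 24 h and -0.08 at 96 h, with overlap at both times (exact permutation p = 0.8 and 0.3).

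**Figure D3:**
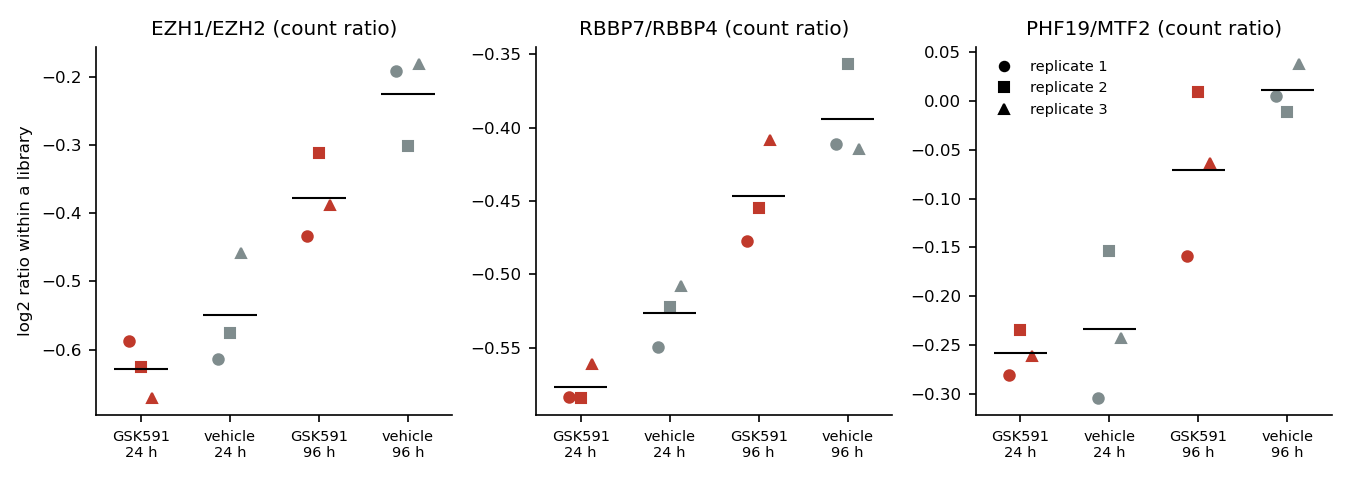
Log2 ratio of read counts of 3 pairs of PRC2 paralogs in each library, GSK591 left of vehicle at each time, with the group mean as a line; points are libraries, marked by replicate number, and the axes do not start at 0. The EZH1 to EZH2 ratio at 96 h lies between -0.43 and -0.31 in GSK591 cells, below the -0.30 to -0.18 of vehicle cells.

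The level of some PRC2 genes also differed with time in vehicle cells, which gives the size of change seen without drug. In vehicle cells, 96 h over 24 h, 3 of the 10 were called, 2 higher and 1 lower, where 47.7% of all genes were, 24.2% higher and 23.5% lower. By number these were 3309 higher and 3207 lower, and 4167 higher and 2503 lower with library size alone. The groups did not overlap for 4 of the 10, against 61.1% of all genes. RBBP4 had 323, 334 and 318 CPM at 96 h, against 375, 371 and 364 CPM at 24 h, and fell by 0.19 ± 0.04 on the log2 scale (adjusted p = 0.000871, edgeR's quasi-likelihood test on 12 libraries). PHF19 had 89.3, 93.6 and 90.1 CPM at 96 h, against 78.1, 83.6 and 81.2 CPM at 24 h, a log2 change of 0.17 ± 0.04 (adjusted p = 0.00189). EZH1 had 96.5, 98.0 and 95.3 CPM at 96 h, against 78.5, 79.9 and 89.1 CPM at 24 h, a log2 change of 0.23 ± 0.07 (adjusted p = 0.0177). The call for EZH1 was lost without vehicle 24 h replicate 1 (adjusted p = 0.081) or replicate 2 (0.0699). JARID2 was higher in every vehicle library at 96 h than at 24 h but was not called (0.17 ± 0.08, adjusted p = 0.109). Without GSK591 96 h replicate 2, which enters this fit through the shared spread, it was called (adjusted p = 0.00484). EZH2 was not called (-0.09, adjusted p = 0.174), but was at -0.15 without vehicle 96 h replicate 2 (adjusted p = 0.0477) and at -0.10 without GSK591 96 h replicate 2 (0.0363). Without both libraries numbered 2 at 96 h, 8 of the 10 were called. EZH1, PHF19 and JARID2 were higher at 96 h, and EZH2, EED, RBBP4, RBBP7 and MTF2 were lower. Over all genes 8876 were called under this setting, against 6516 of 13665 with all libraries. Calls thus rose over all genes as well, so this count is no result about PRC2 as a group. The transcript of PRMT5 fell by 0.54 on the log2 scale over the same interval (adjusted p = 7.51e-07). Time and the set of libraries made at each time cannot be told apart.

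Per length, the subunits covered a wide range. Levels were divided by the exon length of each gene (GENCODE, GRCh38), giving CPM per kb. In vehicle cells at 24 h, RBBP7 was the most abundant at 94.2 ± 0.448 CPM per kb (SD, n = 3), followed by RBBP4 at 46.1 ± 0.661. EZH2 followed at 39.4 ± 0.545, SUZ12 at 33.3 ± 0.805 and MTF2 at 23.1 ± 0.463 CPM per kb. EZH1, at 17.8 ± 1.24, and PHF19, at 17.02 ± 0.574, overlapped. EED stood at 13.5 ± 0.156, AEBP2 at 11.8 ± 0.446 and JARID2 at 6.56 ± 0.163 CPM per kb. All neighbours in this order other than EZH1 and PHF19 were separated beyond the range of their 3 libraries. In GSK591 cells at 96 h, PHF19 at 18.8 ± 0.158 stood before EZH1 at 18.1 ± 2.29, and AEBP2 at 12.5 ± 1.02 before EED at 11.1 ± 0.443, both pairs with overlapping ranges. JARID2 was still the lowest, at 9.34 ± 1.32 CPM per kb in GSK591 cells and 7.36 ± 0.418 in vehicle cells at 96 h. The order depends on the length used. With the longest transcript in place of all exons, EED moved to place 6 and EZH1 to place 8 in vehicle cells at 24 h. By that length EZH2 stood before RBBP4 in vehicle cells at 96 h (42.8 against 40.9 CPM per kb). EED likewise stood before AEBP2 in GSK591 cells at 96 h (18.0 against 14.4 CPM per kb).

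The gene whose pattern over the 12 libraries was most like that of EZH2 was MTMR4, a phosphoinositide phosphatase. Likeness was the root-mean-square difference of log2 CPM after centring each gene on its own mean, over 8922 genes, and was 0.031 for MTMR4. MPHOSPH9 (0.039), LARS (0.040), IGF1R (0.040) and TLK1 (0.041) came next. All share with EZH2 a nearly flat profile, and none was called at either time. Within the complex, SUZ12 was nearest to EZH2 (0.071, with 225 genes closer), then RBBP4 (0.085, 583 closer). JARID2 was the farthest (0.308, 7796 closer).

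The other PRC2 accessory genes that were counted include another Polycomb-like gene, PHF1. At 24 h 2 of the 4 tested were called higher and 0 lower, where 7.44% of all genes were called higher, and at 96 h again 2 higher and 0 lower, where 20.7% were. These and the lists that follow were chosen with earlier results of these data known. PHF1 averaged 162 ± 16.3 CPM in GSK591 cells and 102 ± 10.98 CPM in vehicle cells at 96 h (SD, n = 3 each), a log2 fold change of 0.68 ± 0.09 (adjusted p = 0.00154, edgeR's quasi-likelihood test), called under all 15 alternatives. At 24 h PHF1 was at 0.15 ± 0.04 (adjusted p = 0.00929), a call lost without vehicle 24 h replicate 1 (adjusted p = 0.0644) or GSK591 24 h replicate 1 (0.0620). C10orf12, the symbol under which the PALI1 part of the LCOR locus was counted, was at 0.28 ± 0.04 at 24 h (adjusted p = 0.000204) and 0.42 ± 0.09 at 96 h (adjusted p = 0.00606). LCOR itself and C17orf96 (EPOP) were not called at either time.

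PRC1, the complex that ubiquitinates histone H2A and is recruited in part by the PRC2 mark, had a share of called genes near that of all genes. Of 25 tested genes 3 were higher and 0 lower at 24 h (0 higher and 1 lower with library size alone), and 6 were higher and 3 lower at 96 h. Over all genes 14.7% were called at 24 h and 40.2% at 96 h, so these counts are no result about PRC1 as a group. PCGF6 fell by 0.43 ± 0.06 on the log2 scale at 96 h (adjusted p = 0.00188), and KDM2B, which binds unmethylated CpG islands, was at 0.28 ± 0.05 (adjusted p = 0.00372). At 24 h PHC3 (0.10, adjusted p = 0.0225) and YAF2 (0.14, adjusted p = 0.0342) were called, but these calls were lost in 6 and 9 of 13 alternatives. For YAF2 that was each of the 6 with a 24 h library left out (adjusted p of 0.0551 to 0.124). For PHC3 it was those without vehicle replicate 2 or 3 or GSK591 replicate 1 or 3 (0.0508 to 0.115). YAF2 was not called at 96 h (0.08, adjusted p = 0.328), except without both libraries numbered 2.

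Genes whose products remove the PRC2 mark or place marks opposed to it were mostly called higher at 96 h. The list held the H3K27 demethylases, the acetyltransferases CREBBP and EP300 and the MLL3 and MLL4 complexes. Of 10 tested, 4 were higher and 0 lower at 24 h (1 higher and 1 lower with library size alone), and 7 were higher and 1 lower at 96 h, with a median log2 fold change of 0.27 at 96 h. Over all genes 7.44% were called higher at 24 h and 20.7% at 96 h. The lower one was KDM1A, a demethylase of histone H3 lysine 4 rather than lysine 27. MLL3, a histone H3 lysine 4 methyltransferase, averaged 383 ± 30.7 CPM in GSK591 cells and 277 ± 19.6 CPM in vehicle cells at 96 h, a log2 fold change of 0.48 ± 0.08 (adjusted p = 0.00267). KDM6A, an H3K27 demethylase, averaged 54.3 ± 5.20 CPM in GSK591 cells and 41.3 ± 0.993 CPM in vehicle cells at 96 h, a log2 fold change of 0.41 ± 0.07 (adjusted p = 0.00335). Both held under all 15 alternatives. At 24 h MLL2 (the files' symbol for KMT2D) was at 0.11 ± 0.02 (adjusted p = 0.00435) and CREBBP at 0.09 ± 0.02 (adjusted p = 0.0191), the call for CREBBP being lost in 6 of 13 alternatives, among them those without vehicle 24 h replicate 1 or 2 or GSK591 24 h replicate 1 or 3 (adjusted p of 0.0549 to 0.124).

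The PR-DUB complex, which removes the H2A ubiquitin that PRC1 adds, had 3 of 9 genes higher and 0 lower at 24 h (3 higher and 1 lower with library size alone) and 5 higher and 0 lower at 96 h. Over all genes 7.44% were called higher at 24 h and 20.7% at 96 h. BAP1, its catalytic subunit, was at 0.12 ± 0.03 at 24 h (adjusted p = 0.00299), and HCFC1 at 0.10 ± 0.02 (adjusted p = 0.00395). At 96 h MBD5 was at 0.54 ± 0.08 (adjusted p = 0.00187) and HCFC1 at 0.32 ± 0.05 (adjusted p = 0.0031). The complexes that share RBBP4 or RBBP7 with PRC2 had 7 of 21 genes higher and 1 lower at 24 h, and 8 higher and 4 lower at 96 h. Over all genes 7.29% were called lower at 24 h and 19.6% at 96 h, the share lower at 96 h being near that of this list. At 24 h the NuRD genes MTA2 (0.10, adjusted p = 0.00345) and MBD2 (0.10, adjusted p = 0.0101) were called, MBD2 not without vehicle 24 h replicate 2 (0.0505) or GSK591 24 h replicate 3 (0.0703). MBD2 was not called at 96 h (0.06, adjusted p = 0.476), except without GSK591 96 h replicate 2 or both libraries numbered 2. At 96 h ARID4A, of the SIN3 complex, was at 0.75 ± 0.10 (adjusted p = 0.00154), and CHAF1A, the large subunit of the replication-coupled chaperone CAF-1, fell by 0.52 ± 0.09 (adjusted p = 0.00296).

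**Figure D4:**
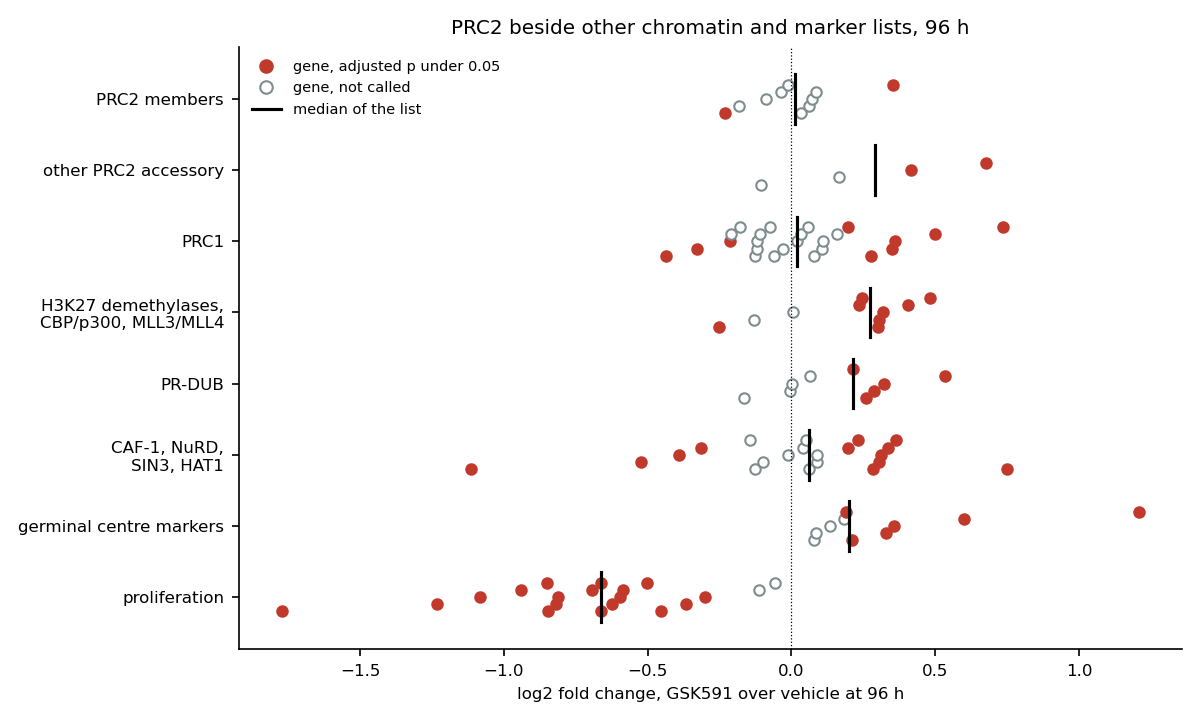
Log2 fold change of GSK591 over vehicle at 96 h for each tested gene of the PRC2 members and 7 other lists; filled points passed an adjusted p of 0.05 over all genes, open points did not, and the bar is the median of the list. The PRC2 members centre on 0.01 with 1 called gene on each side, while the proliferation list centres on -0.66.

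Genes described as repressed by EZH2 in germinal centre B cells or lymphoma did not move one way. At 24 h 0 of the 6 tested were called by edgeR's quasi-likelihood test or by DESeq2, with 1 (CDKN1A) at an unadjusted p under 0.05. CDKN1A was at -0.13 at 24 h, and was called lower in 4 of 13 alternatives, at -0.22 without vehicle 24 h replicate 1 (adjusted p = 0.00954) and at -0.20 without GSK591 24 h replicate 2 (0.00503). At 96 h 1 of the 6 was higher and 3 lower, where 20.7% of all genes were called higher and 19.6% lower. CDKN1A, a cell-cycle inhibitor, averaged 28.96 ± 2.76 CPM in GSK591 cells and 44.0 ± 0.612 CPM in vehicle cells at 96 h, and fell by 0.59 ± 0.08 on the log2 scale (adjusted p = 0.00122). IRF4, a plasma cell regulator, averaged 42.8 ± 0.954 CPM in GSK591 cells and 60.1 ± 4.69 CPM in vehicle cells, and fell by 0.47 ± 0.06 (adjusted p = 0.0014). CIITA, the master regulator of MHC class II genes, averaged 118 ± 1.94 CPM in GSK591 cells and 83.8 ± 10.1 CPM in vehicle cells at 96 h, a log2 fold change of 0.51 ± 0.08 (adjusted p = 0.00273). These 3 calls held under all 15 alternatives. Of the developmental Polycomb targets, HOX genes and other developmental transcription factor genes that PRC2 silences in many tissues, 6 of 20 passed the filter on low counts, and the list summed to 24.3 to 27.5 CPM in GSK591 cells and 23.2 to 25.1 CPM in vehicle cells at 96 h. HOXA5, at 3.70 ± 0.378 CPM in GSK591 cells and 2.19 ± 0.102 CPM in vehicle cells at 96 h, was called higher (0.77 ± 0.12, adjusted p = 0.00258). PAX6, at 3.24 ± 0.441 CPM in GSK591 cells and 2.06 ± 0.196 CPM in vehicle cells, was called higher as well (0.68 ± 0.14, adjusted p = 0.00672), and 0 of the 6 were called lower.

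Proliferation genes, many of them E2F targets like EZH2, fell where EZH2 did not pass the test. Of 20 tested, 12 were lower and 0 higher at 24 h, and 18 lower and 0 higher at 96 h, with a median log2 fold change of -0.10 at 24 h and -0.66 at 96 h. Over all genes 7.29% were called lower at 24 h and 19.6% at 96 h. RRM2, a subunit of ribonucleotide reductase, averaged 222 ± 12.9 CPM in GSK591 cells and 274 ± 9.54 CPM in vehicle cells at 24 h, and fell by 0.30 ± 0.03 (adjusted p = 8.62e-06, edgeR's quasi-likelihood test). POLA1, of the DNA polymerase that primes replication, fell by 0.20 ± 0.03 at 24 h (adjusted p = 0.000243) and by 0.82 ± 0.09 at 96 h (adjusted p = 0.000616). GINS2, of the replicative helicase, fell by 0.66 ± 0.07 at 96 h (adjusted p = 0.00062). The difference between EZH2 and these genes was not tested. The germinal centre markers had 5 of 10 genes higher and 0 lower at 24 h and 6 higher and 0 lower at 96 h, against 7.44% and 20.7% of all genes called higher. MYBL1, which encodes a MYB-family factor typical of the germinal centre, averaged 213 ± 19.9 CPM in GSK591 cells and 93.0 ± 2.06 CPM in vehicle cells at 96 h, a log2 fold change of 1.21 ± 0.07 (adjusted p = 0.000165). The B-cell receptor gene CD79B was at 0.14 ± 0.02 at 24 h (adjusted p = 0.000558). At 96 h it was at 0.18 ± 0.07 and was not called (adjusted p = 0.0771), but was in 4 of 15 alternatives. CD14, of the list of other cell types, was called higher at 96 h, at 0.864 ± 0.301 CPM in GSK591 cells and 0.272 ± 0.132 CPM in vehicle cells, where CD68 and COL1A1 were not called. CD68 was called higher, at 0.25, without GSK591 96 h replicate 2 (adjusted p = 0.022), and at 0.21 without both libraries numbered 2 (0.0125). The other 7 markers of that list were too low to be tested, and CD3D was at 0 in every library. The part of other cells in the results was not tested.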

How the data were processed

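The deposited count tables, 1 a time, hold whole reads for each symbol, not normalized by the authors. Separate deposited tables hold, per the file headers, log2 fold changes, p-values and FDR of GSK591 over vehicle. The tools named in the submitters' processing notes are STAR, HTSeq and edgeR, with build hg19 (GRCh37) and no versions. The annotation and the strand setting are not known here, so no coordinates of the files are used. The 3 samples of a group are not labelled as separate cultures, so p-values here reflect only how much these libraries vary, and that variation may be technical. Replicates of a group differed beyond sampling noise (chi-square per degree of freedom 2.20 to 39.8 over 12 pairs), and all were kept.

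Genes were kept by filterByExpr, scaled with TMM and tested two-sided with the quasi-likelihood method of edgeR 4.0.16 in R 4.3.3. P-values were adjusted by Benjamini-Hochberg across every gene tested, and "called" means an adjusted p under 0.05. Each time was fitted on its 6 samples. The difference between the times and the vehicle comparison of 96 h with 24 h came from 1 fit of 12 samples. That fit shares its spread over both times. The coefficient of variation between replicates was 2.35% at 24 h, 8.19% at 96 h and 5.90% over all 12 libraries. The SE is the log2 fold change divided by the square root of F, with 95% intervals from the fit. Printed CPM are on 1 TMM scale over 12 libraries. Paralog ratios were compared by exact permutation over samples. DESeq2 1.42.0 and the other settings are alternatives. The scripts were tested on simulated data.

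The members and lists were chosen with earlier results of these data known. Named genes were the 10 members, PRMT5, the 5 genes most like EZH2 (average log2 CPM of at least 3) and, from each other list, the 2 with the smallest p at each time. One gene that this rule names is not reported here. List genes under older symbols (MLL2, MLL3, C10orf12, C17orf96) were matched by symbol, and EZHIP was not analysed here. Promoter windows of all 10 members (15 windows) are from RefSeq (GRCh38.p14). Stretches overlapping transcribed bases were trimmed before printing.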

Additional observations from a re-analysis of the deposited data

Results flagged for a closer look

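EED was the 1 of 10 PRC2 genes called in a test of the difference between the times in the response to GSK591. Over all genes 24.1% were called for this difference, 13.2% lower, so this count is no result about PRC2 as a group. The log2 fold change of EED at 96 h minus that at 24 h was -0.23 ± 0.07 (adjusted p = 0.0255, edgeR's quasi-likelihood test on 12 libraries). At 96 h EED was lower in 3 of 3 GSK591 libraries than in every vehicle library, and at 24 h the groups overlapped. Over all genes tested, 54.6% did not overlap at 96 h. Across 20 alternatives the adjusted p of the EED difference lay between 0.00865 and 0.0575, and the 4 that lost the call each left out a 24 h library. By the same test the effect on JARID2 differed by more, 0.33 ± 0.12, but missed the threshold (adjusted p = 0.0542). The JARID2 difference was called in 6 of 20 alternatives.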

How the results depend on the processing

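Over the single log2 values of the 10 PRC2 genes in 4 comparisons, 640 of 680 alternatives kept the direction of called values and the side of the threshold, 30 passed the threshold where the reported value had not, 10 lost a call and 0 reversed a call. Most reported values were not called, so most of the 640 were values that stayed uncalled. Calls were lost for JARID2 at 96 h in 3 of 15 alternatives, for the EED difference in 4 of 20 and for EZH1 in vehicle over time in 3 of 20. The calls of EED at 96 h and of RBBP4 and PHF19 in vehicle over time were kept in all. With all 12 samples in 1 fit, 29 genes were called at 24 h, so the 24 h calls of other genes rest on the spread within the 24 h libraries, and 7392 genes and 4 PRC2 genes at 96 h. Without both libraries numbered 2 at 96 h, 8201 genes and 6 PRC2 genes were called at 96 h, 6022 and 5 for the difference between the times, and 8876 and 8 in vehicle over time. Calls rose over all genes under this setting, so the larger PRC2 counts are no result about PRC2 as a group. PRC2 genes called for the difference between the times numbered 2 with library size alone, with at least 5 CPM in 3 samples, with DESeq2 and with the replicate block. Over all genes 24.1% were called for it in the reported fit, so these counts are no result about PRC2 as a group. Leaving out single replicates gave 980 to 2208 genes at 24 h, 3438 to 7485 genes and 1 to 4 PRC2 genes at 96 h, 1991 to 5712 genes and 0 to 3 PRC2 genes for the difference, and 5051 to 8026 genes and 2 to 5 PRC2 genes in vehicle over time. The PHF19 to MTF2 ratio at 24 h, which was not called, ran from -0.060 to 0.015 and changed sign without vehicle 24 h replicate 2. The causes were not tested. With library size alone, the split of calls at 24 h was 563 higher and 1220 lower.

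Deviations of same-numbered samples correlated at r = 0.08, 0.48 and 0.06 at 24 h and 0.60, 0.37 and 0.05 at 96 h. With some pairs under 0.1, and not every sample closest to its own number, the numbers were not taken as pairs, although those numbered 2 deviated together at both times. The replicate block gave 2811 calls at 24 h, 6293 at 96 h, 4321 for the difference and 5346 in vehicle over time, called EZH1 at 96 h (adjusted p = 0.0495), and in vehicle over time called EZH2 (0.0444) and JARID2 (0.0255) and not EZH1 (0.108). Counts of the other lists under these settings were added after seeing the data. Without both libraries numbered 2 at 96 h, PRC1 subunits had 9 higher and 5 lower, other complexes that hold RBBP4 or RBBP7 12 higher and 4 lower, and proliferation genes 0 higher and 19 lower. Calls over the whole table rose as well under this setting, so the larger counts are no result about these lists. Of 42 calls of other named genes, 24 were kept in every alternative. The PRC2 genes held at least 1859 reads in every library, while most developmental Polycomb targets were too low to test.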
